A study of Mus musculus with 6 samples.

Results

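MS-1 cells without TGF-β are the untreated side of the study's TGF-β comparison, and the description here covers which endothelial, vascular-bed, receptor, matrix and growth genes they expressed. The 3 libraries without TGF-β, of 6 in all, were taken as near-replicates of the line: LNA-NC-cont, LNA-miR31-cont and LNA-miR27-cont. Their cells had received a locked nucleic acid inhibitor, a short modified oligonucleotide that blocks a microRNA, and were then kept for 72 h with 0 ng/ml TGF-β2. The inhibitor was a negative control in the first, against miR-31 in the second and against miR-27 in the third. The other 3 libraries carried the same inhibitors and 1 ng/ml TGF-β2 for the same 72 h, and they serve here only for comparison. All cells were therefore transfected, and no library of untransfected cells was analysed here. MS-1 is a single established mouse line, derived from endothelial cells of pancreatic islets and immortalised with a viral large T antigen, so the values describe that line and not a vessel. Of 29955 gene names in the deposited table, 29310 were kept after names starting with Mir, Snor, Scarna, Rnu or Rny were left out. The 41 gene lists read below held 830 symbols, of which 828 were matched to a name in the table.

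Endothelial cells line every vessel. They hold themselves together with VE-cadherin and PECAM1, keep blood fluid with anticoagulant surface proteins, and read growth signals through VEGF and Tie receptors. Arteries, veins, capillaries and lymphatics add gene sets of their own, set in part by Notch signalling and by SOX, COUP-TFII and PROX1 transcription factors, and organs add more, such as the sealed junctions of brain vessels or the scavenger receptors of liver sinusoids. Much of that specialisation is known to depend on flow and on neighbouring cells, which a culture dish lacks.

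The 3 libraries were close to each other. Values are FPKM, in which the fragments of a gene are divided by its transcript length and by the library's size, and are given in the order negative control, miR-31 inhibitor, miR-27 inhibitor. The table holds neither read counts nor sequencing totals, so the depth is unknown. Each library listed between 11638 and 11672 names at 1 FPKM or more, the level called expressed here, and 11467 names reached it in all 3. The median coefficient of variation of those names was 4.52%, and 98.8% of them spanned less than 0.5 on the scale log2(FPKM + 1). With 1 library per inhibitor, an SD over the 3 holds noise and any effect of the inhibitors together, and the labels do not say that the transfections were separate cultures. A value of 0 in this table is not proof of absence: Eef1a1, the main translation elongation factor of dividing cells, was listed at 0 in all 6 libraries. Such genes are called listed at 0 below. In bulk RNA, fewer cells with a gene and less of its RNA per cell cannot be told apart.

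The line expressed most of the listed endothelial identity genes, many of them at high levels. Of 44 endothelial identity genes, 39 were expressed in all 3 libraries (88.6%), against 39.1% of all names kept and 50.7% of the names of protein-coding genes. Their median level was 57.0 FPKM, where the median over protein-coding names was 1.30. The lists were chosen with earlier results of these data known. That choice may in part set the expressed shares and medians of this list and of those below. Among the 4 marker genes of the line's label, Pecam1, the adhesion molecule of endothelial borders, was at 597, 647 and 593 FPKM (612 ± 29.8, SD, n = 3). Cdh5, which encodes VE-cadherin, was at 180, 206.5 and 195 (194 ± 13.1). Kdr, the main VEGF receptor of blood vessels, was at 62.6, 68.8 and 60.8 (64.1 ± 4.2). Vim, the intermediate filament vimentin that endothelial cells share with fibroblasts, was at 3013, 3227 and 3032 (3090 ± 118) and ranked 17 among all names kept. All 4 markers were thus high in every library, with the miR-31 library highest for each.

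An anticoagulant gene, Procr, led the list by RNA level, and Thbd, another, stood well below it. Procr, the endothelial protein C receptor, was at 1138, 1127 and 1156 FPKM, above every other identity gene and within the 100 highest names of the table at rank 95. Thbd, which encodes thrombomodulin, the partner that turns thrombin into an activator of protein C, was at 137, 155 and 165. Nos3, the endothelial nitric oxide synthase, was at 186, 185 and 176. Behind Procr and Pecam1 came Cd34, a sialomucin of vascular and blood progenitor cells, at 517, 513 and 513, and Egfl7, a matrix-bound factor secreted by endothelium, at 387, 391 and 367. Emcn, a sialomucin of veins and capillaries, stood at 224, 230 and 219. The receptor S1pr1, which tightens the barrier in response to sphingosine 1-phosphate, stood at 197, 201 and 191. Icam2, Esam, Tie1 and Ramp2 were between 97.5 and 131 in every library. The libraries did not separate on these genes: the widest span in the whole list was that of Gpihbp1, the capillary anchor of lipoprotein lipase, at 3.8, 5.0 and 2.8.

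Of the 44 identity genes, 5 stayed under 1 FPKM. Vwf, the clotting factor stored in Weibel-Palade bodies, was at 0.426, 0.372 and 0.411 FPKM (0.403 ± 0.0278). Selp, the selectin stored in the same granules, was at 59.2, 62.6 and 66.6, between 139 and 168 times the level of Vwf in each library. Cldn5, the claudin of tight endothelial junctions, averaged 0.0191 and Palmd 0.00619. Cyyr1 (0.122) and Mmrn2, a matrix glycoprotein of endothelium (0.113), stood between. At the other side of the threshold were Tmem204 at 1.01, 1.20 and 1.04 and Clec14a, an endothelial lectin, at 1.72, 2.08 and 1.73.

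**Figure D1:**
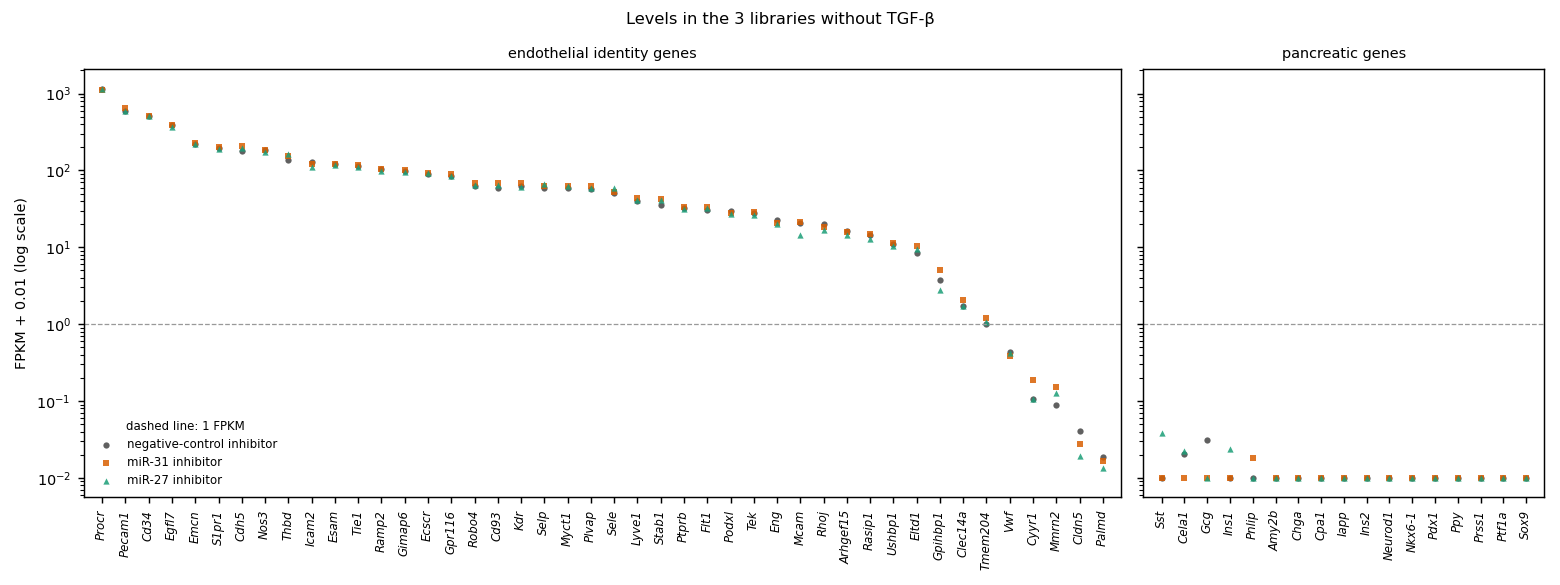
Levels of 44 endothelial identity genes (left) and 17 genes of pancreatic cells (right) in each library without TGF-β, on a logarithmic axis of FPKM + 0.01, so that a gene listed at 0 sits at 0.01. The 3 symbols of a gene nearly coincide above 1 FPKM, 5 identity genes lie below the dashed line, and all pancreatic genes lie below 0.1.

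The promoters of these genes are shown because they differed in base composition from those of the growth genes that this line also expressed. Windows of 300 bases, from 250 before to 50 after the annotated start, were taken from RefSeq (GRCm38.p6). A window was called CpG-rich where its CG pairs reached 0.6 of the number its C and G content would give and its GC content was at least 50%. Of the 22 identity genes with exactly 1 window in that table, 3 were CpG-rich (13.6%), namely Kdr, Flt1 and Mcam, against 47.4% of all 13838 genes matched. The 6 letters AGGAAG, which hold the core that ETS transcription factors read, or CTTCCT for the other strand, were in 15 of the 22 (68.2%), against 33.7% of all windows. In the sequences of 4 expressed identity genes those letters are in capitals, and the last 2, Kdr and the near-silent Cldn5, hold no match in these 300 bases.
Cd34 (chr1:194938571-194938870, plus strand): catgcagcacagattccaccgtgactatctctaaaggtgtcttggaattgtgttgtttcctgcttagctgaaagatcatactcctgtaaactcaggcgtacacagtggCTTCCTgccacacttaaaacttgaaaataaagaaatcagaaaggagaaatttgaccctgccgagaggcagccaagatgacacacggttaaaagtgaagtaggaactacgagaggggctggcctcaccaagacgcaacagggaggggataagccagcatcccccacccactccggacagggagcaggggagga
Emcn (chr3:137340828-137341127, plus strand): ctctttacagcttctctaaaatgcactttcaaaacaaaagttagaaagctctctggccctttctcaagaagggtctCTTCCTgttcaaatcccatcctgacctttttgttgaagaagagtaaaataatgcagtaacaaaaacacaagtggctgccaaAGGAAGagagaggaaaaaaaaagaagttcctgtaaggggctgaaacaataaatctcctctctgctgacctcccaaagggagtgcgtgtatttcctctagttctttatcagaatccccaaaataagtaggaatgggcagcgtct
Tie1 (chr4:118489800-118490099, minus strand): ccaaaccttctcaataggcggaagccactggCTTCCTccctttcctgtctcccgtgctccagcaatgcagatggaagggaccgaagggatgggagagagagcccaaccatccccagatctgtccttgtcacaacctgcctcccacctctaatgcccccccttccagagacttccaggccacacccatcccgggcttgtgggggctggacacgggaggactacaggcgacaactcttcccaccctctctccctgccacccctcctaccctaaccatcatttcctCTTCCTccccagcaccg
Robo4 (chr9:37401722-37402021, plus strand): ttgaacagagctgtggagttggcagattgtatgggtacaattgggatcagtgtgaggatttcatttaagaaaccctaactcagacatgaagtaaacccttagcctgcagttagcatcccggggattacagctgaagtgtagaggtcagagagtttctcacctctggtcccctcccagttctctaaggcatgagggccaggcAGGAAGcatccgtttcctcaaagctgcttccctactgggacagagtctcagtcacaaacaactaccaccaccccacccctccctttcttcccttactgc
Kdr (chr5:75978406-75978705, minus strand): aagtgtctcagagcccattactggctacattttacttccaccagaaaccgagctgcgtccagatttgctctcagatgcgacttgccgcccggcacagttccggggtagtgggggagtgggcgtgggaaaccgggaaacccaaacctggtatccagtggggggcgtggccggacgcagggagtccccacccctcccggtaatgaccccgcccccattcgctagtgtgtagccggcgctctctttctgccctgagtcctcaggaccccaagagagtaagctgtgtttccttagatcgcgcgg
Cldn5 (chr16:18776597-18776896, plus strand): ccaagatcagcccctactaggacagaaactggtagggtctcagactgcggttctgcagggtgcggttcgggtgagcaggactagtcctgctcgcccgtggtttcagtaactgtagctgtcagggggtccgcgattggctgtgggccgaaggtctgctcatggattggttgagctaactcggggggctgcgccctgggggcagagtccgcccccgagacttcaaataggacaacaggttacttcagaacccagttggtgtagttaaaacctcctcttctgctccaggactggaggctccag

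Cell cycle genes showed the other composition. Of 35 with exactly 1 window, 28 were CpG-rich (80%), and 24 held CCAAT, the letters of the CCAAT box, or ATTGG for the other strand (68.6%), against 39.7% of all windows. AGGAAG was in 8 of the 35 (22.9%). Pcna, the sliding clamp of DNA polymerase, Cdk1, the kinase that starts mitosis, and its partner cyclin gene Ccnb1 are given with CCAAT or ATTGG in capitals.
Pcna (chr2:132253131-132253430, minus strand): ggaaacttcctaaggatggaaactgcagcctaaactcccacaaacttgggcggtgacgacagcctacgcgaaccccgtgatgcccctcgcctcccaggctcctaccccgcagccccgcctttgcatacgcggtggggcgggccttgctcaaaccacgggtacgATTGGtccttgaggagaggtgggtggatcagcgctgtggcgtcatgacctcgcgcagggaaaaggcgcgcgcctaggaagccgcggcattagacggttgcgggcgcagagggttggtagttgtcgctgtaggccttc
Cdk1 (chr10:69352863-69353162, minus strand): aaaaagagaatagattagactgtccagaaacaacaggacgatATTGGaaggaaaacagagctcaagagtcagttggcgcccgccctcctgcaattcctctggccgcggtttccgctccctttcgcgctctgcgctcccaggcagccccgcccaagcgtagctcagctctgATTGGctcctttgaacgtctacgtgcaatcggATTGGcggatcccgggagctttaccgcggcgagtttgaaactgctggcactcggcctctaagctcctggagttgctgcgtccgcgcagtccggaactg
Ccnb1 (chr13:100786437-100786736, minus strand): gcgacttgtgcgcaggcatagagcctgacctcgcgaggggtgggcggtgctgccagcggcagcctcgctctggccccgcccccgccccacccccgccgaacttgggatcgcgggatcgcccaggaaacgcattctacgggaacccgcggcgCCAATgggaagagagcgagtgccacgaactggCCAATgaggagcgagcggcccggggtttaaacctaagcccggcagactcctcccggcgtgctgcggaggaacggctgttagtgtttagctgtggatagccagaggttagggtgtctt

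A match is a description of letters and does not go with the level by itself. In the leukocyte list 8 of 11 windows held AGGAAG or CTTCCT although 15 of its 17 genes were not expressed in all 3 libraries, and 0 of 11 windows of smooth muscle genes held it. The letters AGGAAG and CCAAT do not overlap each other, and they were chosen after the levels had been seen. Across all matched genes the share of CpG-rich windows went with the level: 10.0% for genes listed at 0 in all 3 libraries, 22.9% below 0.1 FPKM, 39.7% from 0.1 to under 1, 69.4% from 1 to under 10, 79.3% from 10 to under 100 and 73.3% from 100 up. Cd34 with 7 CG pairs, Emcn with 2, Tie1 with 7 and Robo4 with 2 thus had few CG pairs for their levels of 65.6 to 514 FPKM, where the median windows of the highest classes held 23 (10 to under 100 FPKM) and 21 (100 and over).

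**Figure D2:**
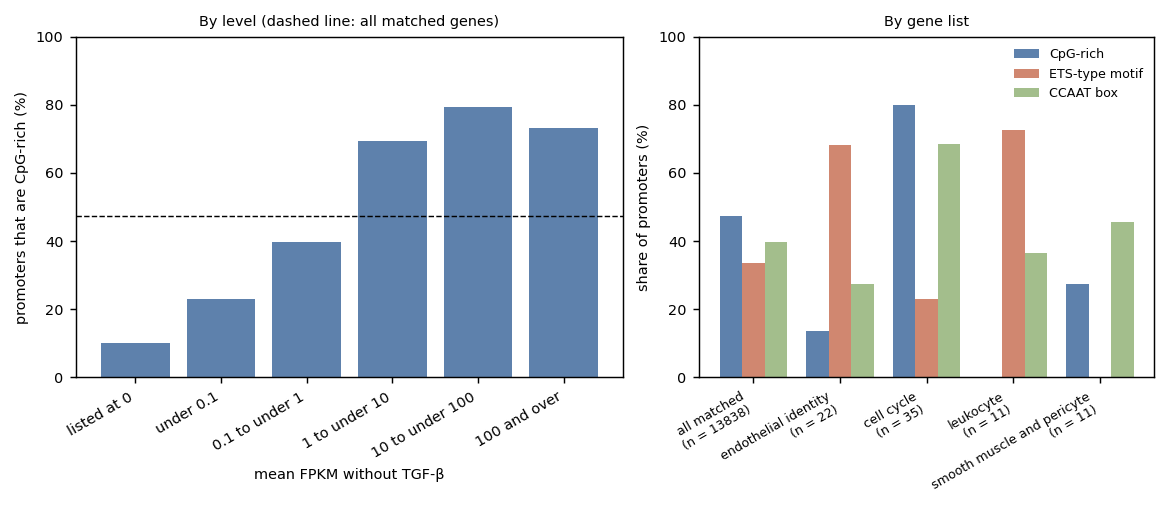
Left, the share of CpG-rich promoter windows, in percent, for genes in 6 classes of mean FPKM without TGF-β, with all matched genes as a dashed line at 47.4%. Right, the shares of windows that are CpG-rich or hold the ETS-type or CCAAT letters, for all matched genes and 4 lists, with the number of windows under each; endothelial identity genes are low in CpG-rich windows at 13.6% and cell cycle genes high at 80%.

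Transcription factors known to hold endothelial identity were present with some named gaps. Of 35 in the list, 25 were expressed (71.4%). Bcl6b, a repressor found in endothelium, led at 209, 218 and 209 FPKM, ahead of Erg, the ETS factor that maintains endothelial genes, at 111, 105 and 101. The ETS factors Ets1 (48.0, 49.5 and 47.9) and Fli1 (44.6, 39.2 and 37.6) followed with Sox7 (42.8, 47.1 and 43.1). Of the 3 SOXF factors, which share roles in vessel formation, Sox7 was therefore dominant: Sox18 was at 1.60, 1.83 and 1.26, and Sox17 was listed at 0 in all 3 libraries. Tal1, Gata2, Lmo2 and Lyl1, which work together in blood and endothelial progenitors, were all expressed, at means of 19.2, 11.2, 10.7 and 10.5. The flow-induced factors Klf2 and Klf4 stood at means of 16.0 and 6.30. Etv2, the factor that starts the endothelial lineage in the embryo, Meox2 and Prox1 were listed at 0, and Hey1 and Hey2, the Notch effectors of arteries, averaged 0.00345 and 0.00880.

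No vascular bed had its list as complete as the general one. Arterial genes were expressed in 10 of 23 cases (43.5%), venous genes in 8 of 16 (50.0%), capillary genes in 8 of 17 (47.1%) and lymphatic genes in 5 of 14 (35.7%). These shares lay near the 39.1% of all names and under the 50.7% of protein-coding names. The counts alone therefore say little, and the members are described one by one. The 39.1% and 50.7% are the measure for every expressed share given below as well.

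Arterial genes were low except for 1. Tm4sf1, a surface protein of angiogenic and arterial endothelium, was at 485, 491 and 479 FPKM. The arterial Notch receptor Notch4 was at 11.6, 12.5 and 10.6 and the ligand Dll4 at 5.44, 5.77 and 3.73, while Efnb2, the arterial ephrin, was at 4.75, 4.88 and 5.09. The arterial connexins Gja4 (mean 0.00709) and Gja5 (listed at 0) were not expressed, and Vegfc and Gkn3 were listed at 0. On the venous side, Nrp2 was at 72.2, 88.0 and 91.6 and Ephb4, the venous receptor for Efnb2, at 29.0, 27.4 and 25.4. Nr2f2, which encodes the venous factor COUP-TFII, was at 4.33, 5.82 and 5.61. Nrp2 exceeded its arterial relative Nrp1 (4.42, 3.94 and 3.83) by 16.3 to 23.9 times, and Ephb4 exceeded Efnb2 by 4.99 to 6.1 times, with no overlap in any library. Aplnr, a receptor of veins and sprouting capillaries, averaged 0.00900.

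Capillary and lymphatic genes were mixed. Plvap, the diaphragm protein of fenestrated capillaries, was at 57.2, 63.1 and 59.5 FPKM, whereas Car4 was listed at 0, Cd36 averaged 0.00753 and Lpl 0.0691. Lyve1, the hyaluronan receptor of lymphatics and liver sinusoids, stood at 39.5, 44.0 and 41.0, and Flt4, the VEGF-C receptor, at 12.6, 12.3 and 12. Pdpn, podoplanin, was at 3.92, 5.02 and 5.17, while the defining lymphatic factor Prox1 was listed at 0, as were Ccl21a and Mmrn1.

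Genes of sprouting tip cells formed the bed-related list with the largest expressed share, 16 of 20 (80%), and a median of 18.3 FPKM. Apln, the peptide apelin, was at 486, 497 and 457, Col4a1 at 196, 208 and 197, and Plaur, the urokinase receptor that focuses proteolysis at the cell front, at 162, 182 and 168. Angpt2 followed at 48.9, 87.7 and 78.9 and Esm1, a proteoglycan of tip cells, at 15.7, 24.6 and 24.97. In both of these the negative-control library was the low one. Kcne3 (0.904), Trp53i11 (0.648) and Nid2 (0.0857) stayed under 1, and Igfbp3 was listed at 0.

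Organ-specific sets were partial, where 39.1% of all names and 50.7% of protein-coding names were expressed. The brain (47.6%), lung (38.5%) and hemogenic (47.4%) shares lay near these, so those counts alone say little. Brain endothelial genes were expressed in 10 of 21 cases (47.6%). Cgnl1, a junction protein, was at 120, 123 and 124 FPKM, the amino acid transporter chain Slc3a2 at 82.4, 106 and 114 and the glucose transporter Slc2a1 at 50.6, 65.0 and 63.7. The efflux pump Abcg2 was at 23.1, 20.6 and 20.4, the prostaglandin D synthase Ptgds at 14.2, 12.3 and 13.2 and Itm2a at 4.22, 4.69 and 5.19, while the brain-specific carriers Slco1c1 and Mfsd2a averaged 7.02e-05 and 0.00666 and Slco1a4, Foxq1 and Foxf2 were listed at 0. Liver sinusoidal genes were expressed in 5 of 17 cases (29.4%): Lyve1, Stab1 (35.2, 43.0 and 41.1), the clotting factor F8 (34.4, 43.5 and 40.4), Kit and Oit3, without Stab2 (0.123), Clec4g (0.00339) or Mrc1 (0.00953). Lung genes numbered 5 of 13 and endocardial genes 5 of 16. Kidney and fenestrated endothelial genes numbered 11 of 17 (64.7%), led by Cav1 and by Kdr and Plvap. Hemogenic genes numbered 9 of 19, with Runx1, the factor of blood emergence, at 5.24, 5.77 and 5.93 and Itga2b at 2.20, 2.34 and 2.21, while Gata1, Myb and Ptprc averaged under 0.01.

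**Figure D3:**
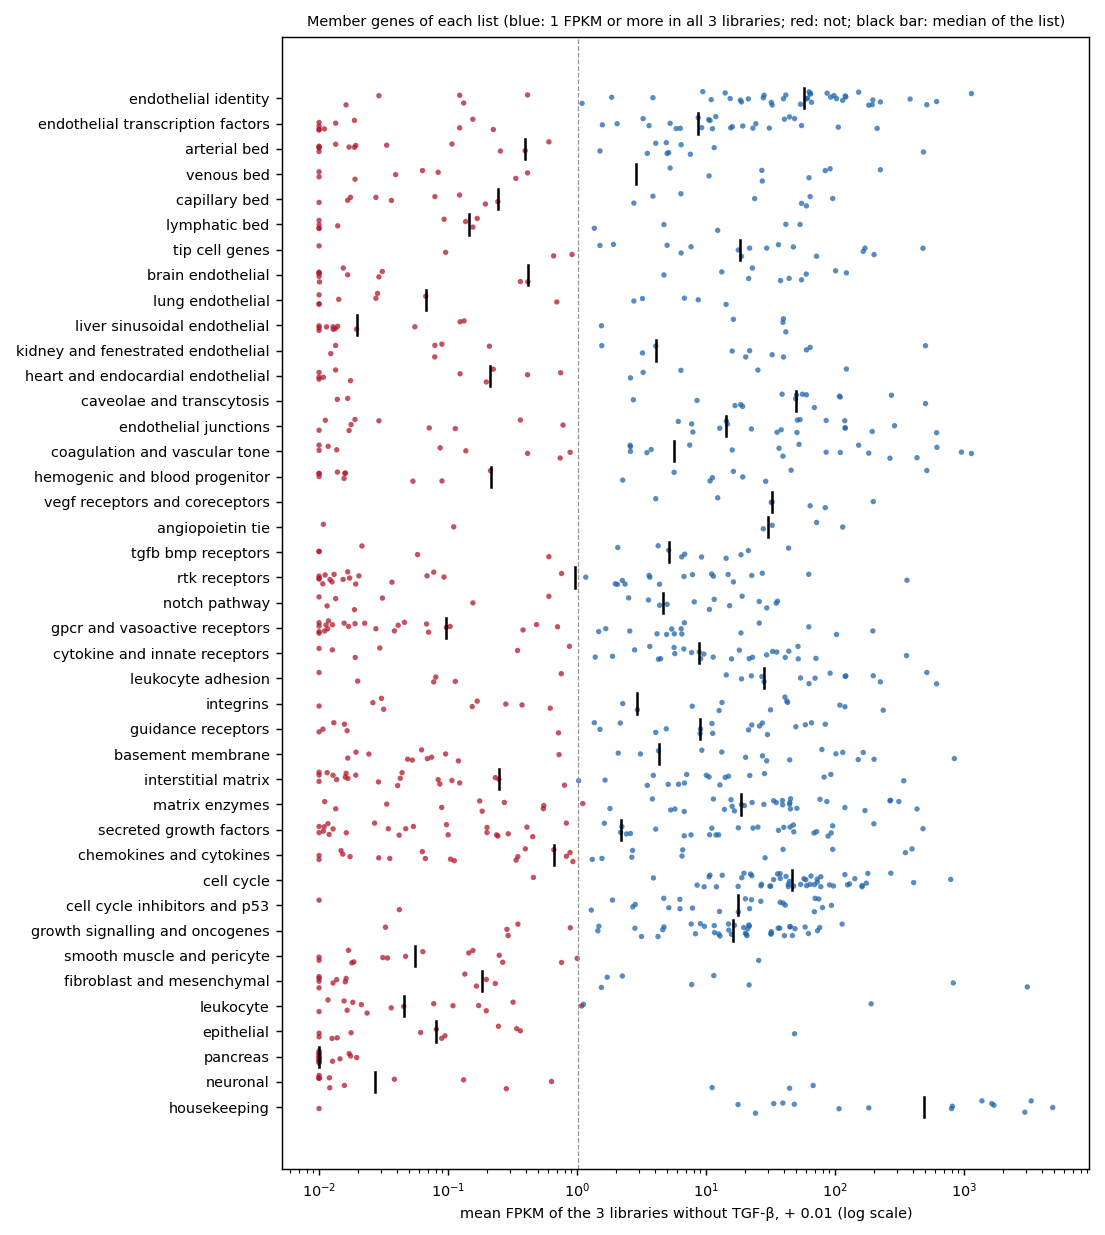
Each point is a member gene of 1 of the 41 lists at its mean FPKM over the 3 libraries without TGF-β, plus 0.01, on a logarithmic axis, blue where it reached 1 FPKM in all 3 libraries, with the list's median as a black bar. Endothelial identity genes (39 of 44) and cell cycle genes (49 of 50) lie mostly right of the dashed line at 1 FPKM, and pancreatic genes (0 of 17) all lie left of it.

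The barrier was built of adherens junctions and caveolae with few claudins. Of 29 junction genes 19 were expressed (65.5%): besides Pecam1 and Cdh5, the catenin genes Ctnnb1 (292, 294 and 281 FPKM), Ctnna1 (116, 121 and 120) and Ctnnd1 (84.6, 87.1 and 84.3), and the junctional adhesion molecule F11r (120, 119 and 120). Gap junctions rested on Gja1 at 51.3, 55.9 and 53.4. Among the sealing proteins, Ocln averaged 0.353, Cldn5 0.0191, Cldn3 0.0614 and Cldn1 0.00119, and Cldn12 at 32.6, 35.3 and 38.6 was the claudin at the highest level of the 4 in the list. Caveolar genes were expressed in 15 of 17 cases (88.2%), with Cav1, the coat protein of caveolae, at 501, 510 and 496 and Prkcdbp, also called Cavin3, at 282, 282 and 257. The muscle form Cav3 averaged 0.00384.

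Receptors of the VEGF and angiopoietin systems were all expressed, with the co-receptor Nrp1 the lowest. All 7 genes of the VEGF receptor list reached 1 FPKM. Flt1, which binds VEGF-A and placental growth factor and largely sequesters them, was at 30.9, 33.2 and 32.0, below Kdr in every library by 1.9 to 2.07 times. Tie1 was at 116, 118 and 110 and Tek, the angiopoietin receptor, at 28.2, 28.9 and 26.1. Of the ligands of Tek, Angpt2, the endothelial antagonist, was at 48.9, 87.7 and 78.9, and the pericyte-derived agonist Angpt1 averaged 0.000801. Vegfa itself stood at 7.46, 11.9 and 12.5, and Pgf, the Flt1 ligand, at 42.6, 52.0 and 47.9.

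RNA of receptors for the TGF-β family was present in these libraries without added TGF-β2. Tgfbr2, the type II receptor, was at 43.6, 44.1 and 43.0 FPKM, and the type I receptors Tgfbr1 and Acvrl1, the latter a partner of the co-receptor endoglin, were at 17.3, 18.5 and 20.1 and at 14.6, 14.0 and 14.2. Endoglin (Eng) was at 22.9, 21.0 and 19.9 and Bmpr2 at 6.40, 7.10 and 6.97. In all, 10 of 15 receptors were expressed (66.7%). Bmpr1a and Bmpr1b were listed at 0, with the limit on such values given above for Eef1a1.

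Receptor tyrosine kinases were expressed in 18 of 36 cases (50.0%), a share close to the 50.7% of protein-coding names. Ddr2, a receptor for fibrillar collagen, was the highest at 335, 389 and 358 FPKM. Mertk, which recognises dying cells through bridging proteins, was at 53.3, 67.1 and 67.1, and Kit, the stem cell factor receptor, at 12.6, 19.9 and 16.4 beside its own ligand Kitl at 38.8, 41.3 and 40.0. Met was at 15.4, 13.9 and 15.1 and Fgfr1 at 9.77, 12.2 and 11.1. The epidermal growth factor receptor family was nearly absent apart from Erbb2 (3.71, 3.73 and 3.52): Egfr averaged 0.0267, Erbb3 0.0104, and Erbb4 was listed at 0. Pdgfrb, the receptor of pericytes, averaged 0.748.

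Notch genes were expressed in 13 of 20 cases (65.0%). The receptors Notch1 (14.8, 16.2 and 14.6 FPKM) and Notch4 exceeded Notch2 (3.18, 3.62 and 3.90), and Notch3, the receptor of smooth muscle, averaged 0.146. Jag1 (28.3, 30.8 and 29.5) and Dll1 (11.2, 10.3 and 10.3) were the ligands above Dll4. Of the targets, Nrarp was at 41.0, 35.0 and 31.4 and Hes1 at 21.3, 19.1 and 16.6, while Hey1, Hey2 and Heyl averaged under 0.01 and Hes5 was listed at 0.

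Among G protein-coupled and vasoactive receptors 15 of 39 were expressed (38.5%). After S1pr1 came F2r, the thrombin receptor, at 59.6, 63.0 and 65.1 FPKM and F2rl3, another thrombin receptor, at 19.1, 20.3 and 16.4. Calcrl, the adrenomedullin receptor, was at 6.26, 7.01 and 7.06 beside its partner Ramp2 at 106, 105 and 97.5. Receptors for endothelin (Ednra 0.00105 and Ednrb 0.0176), angiotensin (Agtr1a 0.00166, Agtr2 listed at 0), bradykinin (Bdkrb2 0.00693) and prostacyclin (Ptgir 0.0938) all averaged under 0.1. Histamine receptor Hrh1 averaged 0.0581.

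Cytokine and innate immune receptors were expressed in 27 of 33 cases (81.8%). Tnfrsf12a, the receptor for the TNF relative TWEAK, was at 355, 356 and 363 FPKM. Tlr4, the lipopolysaccharide receptor, was at 68.6, 72.4 and 72.1, and Il6st, the shared signal chain of the interleukin 6 family, at 50.7, 52.1 and 52.1, while Il6ra, which adds interleukin 6 specificity, stood at 1.44, 1.39 and 1.29. Leukocyte adhesion genes were expressed in 15 of 21 cases (71.4%). Vcam1 (90.1, 92.1 and 92.3), Sele (51.2, 52.6 and 58.3) and Icam1 (25.6, 26.4 and 29.1), which cytokines are known to induce, were all measurable with no cytokine named in the labels. The chemokine genes Ccl2 (432, 402 and 351) and Cxcl1 (331, 323 and 398) were high beside them, although 11 of 29 chemokine and cytokine genes in all were expressed (37.9%), and Tnf, Il1b and Il6 averaged 0.0190, 0.00480 and 0.919.

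Among the integrin α chains listed, the laminin-binding Itga7 and Itga6 were above the others in each library. Of 21 integrin subunits, 12 were expressed (57.1%). Itgb1 was at 228, 242 and 239 FPKM, Itga7 at 121, 120 and 117 and Itga6 at 112, 118 and 96.2. The laminin-binding Itga3 (42.9, 43.9 and 41.7) and the fibronectin-binding Itga5 (37.7, 46.0 and 43.1) overlapped, with the vitronectin-binding pair Itgav and Itgb3 at means of 31.6 and 40.8. Itga1, a collagen-binding chain, was at 13.7, 13.4 and 12.7, and the others of that kind, Itga2, Itga10 and Itga11, averaged 0.365, 0.27 and 0.0161. Itgb5 was at 2.83, 2.91 and 3.03.

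Basement membrane genes were expressed in 16 of 27 cases (59.3%) at specific isoforms. Sparc, a collagen-binding matricellular protein, was at 838, 858 and 827 FPKM, Col4a1 at 196, 208 and 197, Col4a2 at 111, 120 and 112 and Col4a5 at 9.48, 8.68 and 9.63, while Col4a3, Col4a4 and Col4a6 averaged 0.0143, 0.0428 and 0.0645. The laminin chains Lama4 (41.5, 49.6 and 42.4), Lama5 (26.3, 28.8 and 27.0), Lamb1 (28.3, 30.7 and 29.5) and Lamc1 (143, 159 and 151) are those of the main vascular laminins. Epithelial and muscle chains were near 0, with Lama3 at 0.0386, Lamb3 at 0.0591 and Lama2 at 0.00933 on average. Of the nidogens, Nid1 was at 154, 169 and 173, and Nid2 averaged 0.0857.

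Interstitial matrix genes were expressed in 18 of 39 cases (46.2%) with a median of 0.238 FPKM. The matricellular genes led: Thbs1, a thrombospondin that restrains vessel growth, at 302, 352 and 368, Nov at 89.7, 98.0 and 90.4, and Cyr61 at 63.5, 90.7 and 92.7. Fn1, fibronectin, was at 22.8, 31.1 and 31.1. The fibrillar collagen genes of connective tissue were nearly silent, with Col1a1 averaging 0.00283, Col1a2 0.00597 and Col3a1 0.222, as were Dcn (0.00621) and Lum (0.00369), while Col5a1 was at 22.9, 21.7 and 20.8 without its partner Col5a2 (0.0340). Col6a1 (6.36, 6.95 and 7.05) and Col6a3 (3.22, 4.51 and 3.95) were likewise expressed with Col6a2 at a mean of 0.0307. Ddr2, the collagen receptor above, was thus at over 300 FPKM in cells with almost no type I collagen RNA.

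Matrix enzymes and their inhibitors were expressed in 31 of 41 cases (75.6%). Plau, the urokinase protease, was at 416, 467 and 412 FPKM and its receptor Plaur at 162, 182 and 168, so protease and receptor were high together. Timp1 was at 127, 111 and 120. The membrane protease Mmp14, which activates the Mmp2 product, was at 34.4, 36.6 and 33.9 and Mmp2 at 3.57, 4.23 and 3.67, while Mmp9 averaged 0.00346. Of the lysyl oxidases, which cross-link collagen, Loxl2 (41.9, 46.8 and 45.1), Loxl4 (36.8, 41.7 and 39.1) and Loxl3 were expressed, and Lox itself averaged 0.00106. Mmp3, at 0.933, 1.17 and 1.19, lay across the threshold.

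Secreted growth factors were expressed in 27 of 50 cases (54.0%). Some stood without expression of the receptor set beside them here. Apln exceeded 450 FPKM in all 3 libraries where Aplnr was at most 0.0122. Nrg1 was at 24.2, 25.5 and 25.9, while Erbb4 was listed at 0 and Erbb3 was near 0. Hbegf stood at 33.6, 48.4 and 52.3 against an Egfr mean of 0.0267. Pdgfb, which draws pericytes to vessels, was at 19.2, 18.4 and 15.8 with the pericyte receptor Pdgfrb under 1, although the related receptor Pdgfra was expressed. Met showed the reverse, a receptor at 13.9 to 15.4 whose ligand gene Hgf averaged 0.00625. Ligand and receptor were both expressed for Kitl and Kit, for Cxcl12 (87.4, 103 and 97.0) and Cxcr4 (4.09, 8.69 and 6.41), for Pdgfa (70.6, 65.9 and 69.4) and Pdgfra (1.86, 2.33 and 2.51), for Pgf and Flt1, for Vegfa and Kdr, for Angpt2 and Tek, for Adm and Calcrl and for Plau and Plaur. Bmp4 was at 75.5, 100.1 and 104, Fgf2 averaged 0.0244, and Vegfc, the lymphatic growth factor, was listed at 0.

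**Figure D4:**
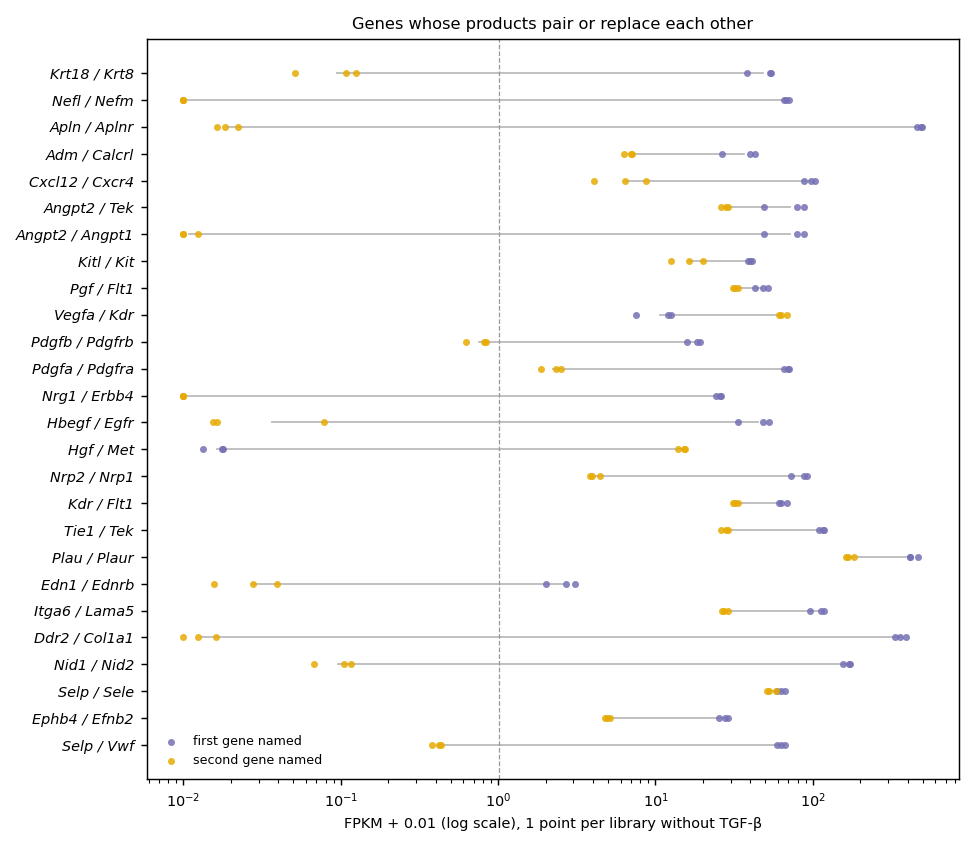
For 26 pairs of genes, the 3 libraries without TGF-β are plotted as points at FPKM + 0.01 on a logarithmic axis, violet for the first gene named and yellow for the second. In Apln and Aplnr, Nrg1 and Erbb4, Hbegf and Egfr, and Ddr2 and Col1a1 the genes lie over 100 times apart, and in Kitl and Kit, Pgf and Flt1, and Selp and Sele both genes lie above 1 FPKM.

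Genes of coagulation and vascular tone were expressed in 19 of 28 cases (67.9%). Besides Procr and Thbd, the plasminogen-binding pair Anxa2 (994, 920 and 947 FPKM) and S100a10 (648, 606 and 593) was high, and Entpd1, which removes platelet-activating nucleotides, was at 98.1, 113 and 118. Tfpi, the inhibitor of the tissue factor pathway, was at 52.2, 52.6 and 52.9, where its target F3, tissue factor, averaged 0.730. The endothelin precursor Edn1 was at 2.0, 3.05 and 2.7, far below Nos3.

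The cells carried the RNA of proliferating cells. Of 50 cell cycle genes 49 were expressed (98.0%), with a median of 46.0 FPKM and E2f2 alone under 1, at a mean of 0.449. Ccnd1, the cyclin that couples growth signals to entry into the cycle, was at 808, 797 and 760 and Pcna at 420, 405 and 395. Markers of each later phase were present, among them Top2a (280, 265 and 267), Mcm6 (171, 178 and 175), Mki67 (111, 122 and 124), Ccnb1 (65.4, 63.7 and 62.4) and Plk1 (36.7, 35.7 and 35.1). The widest span of any member between libraries was 0.31 on the log2 scale.

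Brakes on the cycle were expressed as well, in 23 of 25 cases (92.0%). Trp53 was at 83.8, 79.3 and 76.6 FPKM, and its targets Bax (97.4, 93.1 and 90.7), Ccng1, Mdm2 and Cdkn1a, the p21 inhibitor (44.1, 42.9 and 36.3), were all expressed. Cdkn2a, the locus of p16 and p19ARF that senescent cells induce, was at 5.14, 6.34 and 7.33. Pmaip1 averaged 0.0319 and Perp, a p53 target of epithelia, was listed at 0. Of the growth signalling genes 41 of 46 were expressed (89.1%). Hmga2, a chromatin protein of embryonic and transformed cells, led at 110, 118 and 112, with its relative Hmga1 at 72.9, 80.3 and 75.0. Nras (48.4, 48.6 and 49.6) exceeded Hras1 (23.4, 20.5 and 20.3) in every library. Myc was at 8.88, 12.8 and 13.2, Tert, the telomerase enzyme, averaged 0.876, and Fos 0.276.

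Markers of other cell types were checked list by list. Of 17 pancreatic genes, islet hormones and digestive enzymes included, 12 were listed at 0 in all 3 libraries, among them Ins2, Iapp and Pdx1, and the list summed to between 0.00813 and 0.0545 FPKM per library. Of 16 smooth muscle and pericyte genes, Smtn (24.7, 26.5 and 25.6) was expressed, the other 15 summed to between 2.64 and 2.72, and Acta2, Tagln and Myh11 averaged 0.135, 0.255 and 0.0239. Leukocyte genes numbered 2 of 17, the lysosomal Cd68 (169, 191 and 211) and Lyz2 (1.18, 1.03 and 1.12), with Coro1a at 1.19, 1.08 and 0.963. The pan-leukocyte gene Ptprc averaged 0.00561 and Cd3e was listed at 0, and the 15 other leukocyte genes together summed to between 1.91 and 2.1.

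Fibroblast and mesenchymal genes numbered 8 of 20, led by Vim and S100a4 (884, 826 and 764 FPKM). Zeb1 (20.6, 22.5 and 21.5) and Zeb2 (10.5, 11.9 and 12), repressors of epithelial genes, were expressed, and Snai1 (1.58, 1.76 and 1.77) and Snai2 (1.44, 1.49 and 1.67) were low. Twist1, Twist2, Thy1 and Tcf21 were listed at 0. The 12 members under 1 FPKM summed to between 0.631 and 0.780 per library. From the epithelial list, Krt18 was expressed at 38.2, 53.3 and 54.0 while its filament partner Krt8 averaged 0.0846, and Epcam was listed at 0. RefSeq lists a pseudogene copy of Krt8 on another chromosome, so reads shared with it make the Krt8 value uncertain. Neuronal genes numbered 3 of 14, the cytoskeletal genes Nefl (65.2, 70.3 and 67.3), Nes (47.0, 43.9 and 42.4) and Tubb3 (11.1, 11 and 11.2), with Nefm and Snap25 listed at 0.

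With ribosomal protein, histone, short RNA, joint, pseudogene-like and unnamed entries skipped, Actb (4798, 5006 and 4794 FPKM) was the highest name. Names outside the lists that followed included Lgals1, a galectin, at 2910, 2786 and 2722, the ferritin gene Ftl1 at 2637, 2690 and 2954, the actin-binding Tmsb4x at 2223, 2271 and 2236, and the chaperone gene Hspa8 at 2097, 2272 and 2221. The 849 names at 100 FPKM or more held 67.1% of the summed FPKM of the names kept. At the other end, 8688 names were listed at 0 in all 3 libraries, 3801 of them of protein-coding genes. Gapdh is placed by the table on another chromosome than its RefSeq gene, so its 1619, 1658 and 1645 FPKM are uncertain.

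Members varied little between the inhibitors, and the negative-control library was the one that stood slightly apart. The median absolute difference on the log2(FPKM + 1) scale over names expressed in all 3 was 0.078 between the negative-control and miR-31 libraries, 0.082 between the negative-control and miR-27 libraries and 0.044 between the inhibitor libraries. Over all names kept, 43 (0.147%) spanned 1 or more, and Gadd45a, a growth arrest gene, was the list member among them that was expressed in all 3 libraries, at 22.3, 41.4 and 48.8 FPKM. Of 67 expressed list members that spanned at least 0.3, the negative-control library was the farthest from the middle value in 51 (76.1%). It was the lowest in 42 and the highest in 9. Over all names with that span, a mean of at least 10 FPKM and no 0, it was farthest in 247 of 318 (77.7%). It was the lowest in 191 of these and the highest in 56, so the list members were like the table at large. List members lowest in the negative-control library included the secreted factors Angpt2, Vegfa, Hbegf, Esm1, Adm and Gdf15. Adm, a vasodilator peptide, was at 26.6, 39.7 and 42.9 FPKM, and Gdf15, a stress-induced cytokine, at 70.9, 94.7 and 99.1. With 1 library per inhibitor these differences have no replicate check.

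The levels without TGF-β are set beside the libraries with TGF-β by an additive limma fit of inhibitor and TGF-β over 11816 genes. Of these, 50.2% passed an adjusted p of 0.05 (Benjamini-Hochberg), 22.7% higher and 27.5% lower with TGF-β, and the median difference was -0.02 on the log2(FPKM + 1) scale. The residual spread of that fit rests on 2 degrees of freedom. Without LNA-NC-cont the calls were 1657 higher and 1924 lower in place of 2677 and 3249, and without LNA-NC treated with TGF-β they were 1615 and 1937.

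Of the endothelial identity genes 40 were tested, 12 were higher and 21 lower, with a median difference of -0.31. The largest falls among the tested members were of the anticoagulant genes Thbd and Procr. Thbd went from 137, 155 and 165 FPKM to 20.1, 19.0 and 22.8, with no overlap, and fell by 2.82 ± 0.06 (SE of the fit, limma adjusted p = 2.9e-05). Procr went from 1138, 1127 and 1156 to 269, 288 and 269 and fell by 2.05 ± 0.05 (limma adjusted p = 3e-05). Cd34 fell by 0.76 ± 0.04. In the other direction, Vwf, von Willebrand factor, went from 0.426, 0.372 and 0.411 to 17.2, 23.0 and 21.3 FPKM. It had the largest rise of the members tested, by 3.93 ± 0.09 (limma adjusted p = 3.3e-05). With a mean of 0.403 without TGF-β, Vwf passed the filter of 1 FPKM over the 6 libraries only through those with TGF-β. Its adjusted p and its place as largest rise are therefore set in part by that filter. It counts among the 12 higher. Eltd1 rose by 1.34 ± 0.04. Emcn rose from 224, 230 and 219 to 395, 382 and 393, or by 0.79 ± 0.04, Mcam by 1.75 ± 0.09, Ptprb, a phosphatase that restrains Tek, by 0.86 ± 0.05, and Myct1 by 0.85 ± 0.04. Pecam1 (0.05 ± 0.05, limma adjusted p = 0.386) and Cdh5 (-0.13 ± 0.04, limma adjusted p = 0.0523) did not pass, although Cdh5 did when genes under 5 FPKM were left out (limma adjusted p = 0.0424), and Kdr fell by 0.80 ± 0.05 and Vim by 1.21 ± 0.05.

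Genes of the vascular bed lists were called in both directions with TGF-β. Among all genes tested 22.7% were higher and 27.5% lower, so counts in lists this small say little by themselves. Of 9 venous genes tested, 7 were higher and 2 lower (median 0.75), of 10 arterial genes 5 were higher and 5 lower (median -0.13), and of 8 capillary genes 1 was higher and 5 lower (median -0.54). These lists share members with the identity list. Vwf is among the 9 venous genes tested and the 7 higher, and it passed the filter only through the libraries with TGF-β. The venous count and median are therefore set in part by that filter. Tip cell genes numbered 7 higher and 8 lower of 16. Apln fell by 0.78 ± 0.09, Plaur by 1.88 ± 0.08 and Tm4sf1 by 1.66 ± 0.13, while Esm1 rose by 1.98 ± 0.12 from 15.7, 24.6 and 24.97 to 82.5, 93.3 and 86.0 FPKM, and Unc5b, a netrin receptor, rose by 2.97 ± 0.10 from 1.39, 1.73 and 1.36 to 19.2, 16.6 and 20.02. Members of the tip cell list thus moved in both directions. When genes of every level were tested, Apln and Tm4sf1 did not pass (limma adjusted p = 0.0802 and 0.0547).

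Among 49 cell cycle genes tested, 13 were lower and 36 did not pass, with a median of -0.10, a share near the 27.5% lower among all genes. The scale mattered for 1 member: after rescaling by the median ratio 1 was higher and 13 lower. Ccnd1 had the largest fall of the 49, by 2.18 ± 0.04 (limma adjusted p = 2.5e-05), from 808, 797 and 760 FPKM to 174, 171 and 173. Of 41 growth signalling genes 5 were higher and 16 lower, where 22.7% of all genes were higher and 27.5% lower. After the median ratio rescaling 5 were higher and 13 lower of 40. Fosl1, an AP-1 subunit, fell by 2.78 ± 0.09, Spry4, a feedback inhibitor of receptor signalling, by 2.04 ± 0.05 and Hmga2 by 1.68 ± 0.08. The receptor gene Mertk and the ligand gene Kitl fell as well, from means of 62.5 and 40.0 FPKM to 15 and 10, as did the laminin-binding Itga7 from 119 to 62.4 and the protease gene Adamts1 from 45.2 to 15.4. Interstitial matrix genes numbered 14 higher and 4 lower of 18 (median 1.23), beside the same shares of all genes, and the rescaling left these counts unchanged. Beside these counts, the summed level of the 15 smooth muscle members that were under 1 FPKM without TGF-β was between 2.64 and 2.72 in those libraries and between 15.4 and 23.2 with TGF-β. That of the 12 low fibroblast members was between 0.631 and 0.780 without and between 14.5 and 17.4 with it. The part of these low members in the other results was not tested. They were picked for a low level without TGF-β, so the choice itself favours a rise. All 16 smooth muscle members summed to between 27.4 and 29.1 without and between 32.1 and 39.9 with TGF-β. All 20 fibroblast members summed to between 3844 and 4101 without and between 1726 and 1970 with it.

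**Figure D5:**
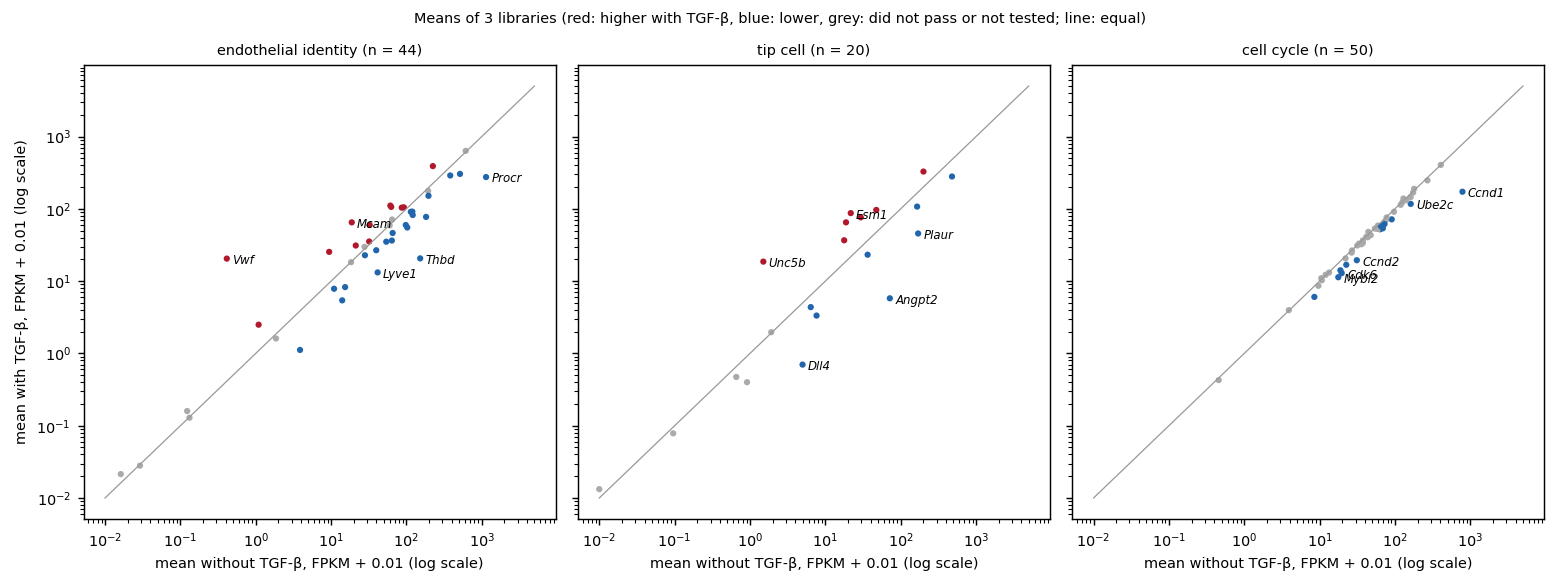
Mean FPKM + 0.01 of the 3 libraries with TGF-β against that of the 3 without, on logarithmic axes, for identity, tip cell and cell cycle genes, red where higher with TGF-β by limma, blue where lower and grey otherwise, with the line of equality. Thbd and Procr lie below the line and Vwf far above it among identity genes, and Ccnd1 is the cell cycle gene farthest below, from a mean of 788 to 173 FPKM.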

How the data were processed

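RNA of MS-1 cells was measured in 6 libraries, 1 per combination of 3 inhibitors and 2 TGF-β states, with ribosomal RNA removed and strand-aware libraries read on a HiSeq 2000, per the labels' protocols. The authors deposited FPKM per gene name; TopHat2 2.0.9, Cufflinks 2.1.1 and genome build mm9 are named in the submitters' processing notes, and the annotation, counting options and filters are not given in the sources used here. FPKM values were used as deposited. Since reads shared by similar or overlapping genes can be divided or dropped by such estimators, 0 was not read as absence, and no count test was possible.

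Of 29955 names, 645 names of short RNAs were left out by the rule; they held 75.2% to 78.2% of the summed FPKM of a library. Names were matched to RefSeq by symbol, older name or synonym (21695 of 29310 kept). Levels were described as values, means and SDs over 3 libraries. The TGF-β comparison used limma 3.58.1 in R 4.3.3 on log2(FPKM + 1), additive in inhibitor and TGF-β, over genes averaging at least 1 FPKM across the 6 libraries, 2-sided, with 2 residual and 2.87 prior degrees of freedom; SEs are those of the fit. With 1 library per condition, interactions have no test. The fit was also run on simulated data with independent noise and planted changes in a small part of the genes. In the real data 50.2% of genes were called, so that run does not give the error rate here. Promoter windows came from RefSeq (GRCm38.p6), for 13838 genes with exactly 1 window, and figures were made with matplotlib 3.10.9. Alternatives were other thresholds, scalings, pseudocounts, filters and leaving out each library.

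The members and the 41 lists were chosen with earlier results of these data known, and the promoter letters after the levels were seen. Text names were the 4 markers, list members in order of mean and then those near 0, and, outside the lists, names among the 20 highest and the 10 with the widest range at a mean of at least 5 FPKM, after ribosomal protein, histone, short RNA, joint, pseudogene-like and unnamed entries were skipped. List members named for a large difference between libraries or with TGF-β were chosen after their values were seen. The list symbols Fendrr and Hba-a1 had no matched name. A few list members are not reported here.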

Additional observations from a re-analysis of the deposited data

How the results depend on the processing

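The count of 11467 names expressed in all 3 libraries stayed between 8965 and 12432 under the 10 alternatives run. Of the 41 lists, 38 kept a count within 1.5 times when 1 name per place was kept, 39 at a threshold of 2 FPKM, and all 41 under the median ratio rescaling and when names of the same gene were summed, which was chosen after seeing the data. The 43 names spanning at least 1 became 401 with a pseudocount of 0.1, 234 at a span of 0.5, 24 without names listed at 0 and 23 at a mean of at least 5 FPKM. With no filter on low values, 1379 genes were called higher and 1521 lower with TGF-β, where more genes were tested. Leaving out each library gave 1615 to 2838 higher and 1924 to 3296 lower. Of the 26 genes whose limma result was followed, Cdh5 passed at a mean of at least 5 FPKM (limma adjusted p = 0.0424) and with trend and robust options (0.0334), with the other alternatives between 0.0596 and 0.163. Without the filter Tm4sf1 (0.0547) and Apln (0.0802) no longer passed, with the other alternatives between 7.97e-05 and 0.00359 for Tm4sf1 and between 0.000471 and 0.0133 for Apln. CpG-rich shares under a stricter rule (0.75 of expected CG pairs, 55% GC) were 6.17%, 13.1%, 23.8%, 46.4%, 55.5% and 48.5% from the lowest class to the highest, and 76.9% for genes at 10 to under 100 FPKM with the first listed window of every gene, an alternative chosen after seeing the data. The labels give no replicate numbers, and the inhibitor term already pairs the libraries of each inhibitor with and without TGF-β; without it 2483 were higher and 2967 lower. The unknown depth limits every value near 0.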

Other observations

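Some names that most cells use were listed at 0 in 1 library and high in the others. Ahnak, a large scaffold protein, was at 0, 478 and 492 FPKM, Itch, a ubiquitin ligase, at 0, 26.7 and 25.7, Mapk9, the kinase JNK2, at 19.9, 0 and 19.9, Hnrnpc, an RNA-binding protein, at 32.2, 33.7 and 0, and Hnrnpd at 10.9, 11.2 and 0. In all, 12 names were listed at 0 in 1 or 2 of the 3 libraries and at 5 FPKM or more in another, and 19 of the 43 names spanning at least 1 held a 0. None of these 5 genes is in a list above.

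The widest spans without a 0 were those of Hexdc, an enzyme that trims sugars, at 2.79, 20.7 and 2.79 FPKM, Smyd2, a lysine methyltransferase, at 38.7, 37.8 and 120.3, Commd4 at 53.9, 60.9 and 21.8, R3hdm2 at 15.7, 19.3 and 43.3, and Frmd8 at 32.8, 39.8 and 15.5. In each of the 5 a single library stood apart, the miR-31 library for Hexdc and the miR-27 library for the other 4.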
